A study of Rattus norvegicus with 3 samples.

Results

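The genes described here are 34 genes of fat cells and of lipid synthesis and storage, taken by symbol from a fixed list and found on the arrays through the RefSeq accession of each probe. They stand beside 15168 genes with a probe in all. Of the 34 genes, 32 had a probe. The droplet coat genes Plin1 and Plin4 had no probe that matched by accession and carry no values here. Levels come from 3 one-colour Agilent arrays of rat calf muscle, and all 3 samples were labelled as Wistar Honnover males of 12 weeks. The groups were the soleus 28 days after a piece of about 5 mm was cut from the left sciatic nerve at the gluteal level, the normal plantaris, and the normal soleus of untreated controls. The title of the normal soleus sample does not name its muscle, and its source name gave the group.

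Each group is 1 array, so there is no replicate check, no p-value is given, and every difference describes these arrays only. The labels do not say how many animals each array represents. The denervated array lies on a slide of its own and was scanned at another time than the other arrays, which share a slide and a scan. Denervation and slide therefore cannot be told apart. A level is given as a scaled signal, the background-subtracted signal of a probe with the 75th percentile of its array set to 100. Scaled signals compare arrays for 1 gene and not genes with one another. A fold is the difference of log2 levels, 1 log2 unit being 2-fold, and the ± is the scanner software's measurement error, which covers no difference between animals. A gene counts as higher or lower from 2-fold upward, a rule of size. Of 30367 probes, 64.2% to 67.0% stood clear of background, depending on the array. The marker genes Myh4 and Chrng went with the labels. The fast myosin gene Myh4 stood at 23559 on the plantaris array, against 158 on the normal soleus array. Chrng, the fetal acetylcholine receptor subunit that muscle makes without its nerve, stood at 1846 on the denervated array, against 70.3 on the normal soleus array.

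White fat cells store triglyceride in 1 large droplet, release fatty acids from it by lipolysis, and secrete hormones such as adiponectin, leptin and resistin. The transcription factors PPARG and C/EBP alpha switch on this programme when precursor cells in the tissue turn into fat cells. Muscle fibres also hold lipid, in many small droplets beside their mitochondria. They make their own droplet coats, lipases and acyltransferases, and slow oxidative fibres hold more lipid than fast glycolytic ones. The 34 genes were therefore read as 19 fat cell markers, made among the cells of a muscle mainly by fat cells, and 15 shared lipid genes, which fibres and many other cells make too. That division is by known function and was drawn with earlier results of these data known. Some of the 19 are not exclusive. Capillary endothelium also makes Fabp4 and Aqp7. Cidea did not follow the fat cell hormones on these arrays, at 830 in the denervated soleus, 80.7 in plantaris and 808 in the normal soleus. It is thus a marker by the list only.

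Start regions of 6 members are shown as examples from genes at least 2-fold apart between the denervated and the normal soleus, 5 of them higher and Gpam lower. They are RefSeq windows on build GRCr8, from 250 bases before to 50 bases after the gene start, written 5′ to 3′ on the gene's strand. Capitals mark matches on either strand to TTGCNNAA, the C/EBP palindrome TTGCGCAA with its 5th and 6th bases free. With those bases free the pattern is no longer a palindrome.

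Adipoq (chr11:91240120-91240419, - strand): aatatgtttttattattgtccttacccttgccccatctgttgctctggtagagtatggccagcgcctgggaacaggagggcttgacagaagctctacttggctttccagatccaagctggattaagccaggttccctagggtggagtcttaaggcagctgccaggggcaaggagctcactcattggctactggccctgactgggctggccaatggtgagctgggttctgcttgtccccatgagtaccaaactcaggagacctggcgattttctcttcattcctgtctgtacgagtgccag

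Retn (chr12:6508524-6508823, + strand): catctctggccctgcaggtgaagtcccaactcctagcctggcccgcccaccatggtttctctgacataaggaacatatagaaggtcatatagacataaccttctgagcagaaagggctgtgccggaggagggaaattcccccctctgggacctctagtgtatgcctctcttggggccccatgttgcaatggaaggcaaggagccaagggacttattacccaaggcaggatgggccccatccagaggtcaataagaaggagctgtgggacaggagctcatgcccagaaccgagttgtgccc

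Cidec (chr4:148137066-148137365, - strand): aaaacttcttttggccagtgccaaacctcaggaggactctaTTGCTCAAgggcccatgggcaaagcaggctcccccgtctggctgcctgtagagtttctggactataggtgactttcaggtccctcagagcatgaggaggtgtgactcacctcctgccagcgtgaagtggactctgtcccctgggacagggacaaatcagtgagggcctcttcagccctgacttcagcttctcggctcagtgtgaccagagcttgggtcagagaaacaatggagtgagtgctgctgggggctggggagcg

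Pparg (chr4:150154522-150154821, + strand): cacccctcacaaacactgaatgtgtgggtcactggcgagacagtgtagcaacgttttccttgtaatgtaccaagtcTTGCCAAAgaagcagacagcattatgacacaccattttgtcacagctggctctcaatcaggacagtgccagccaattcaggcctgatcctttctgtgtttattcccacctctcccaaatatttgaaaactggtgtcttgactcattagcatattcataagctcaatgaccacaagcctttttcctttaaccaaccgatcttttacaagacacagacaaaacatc

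Scd (chr1:253231682-253231981, - strand): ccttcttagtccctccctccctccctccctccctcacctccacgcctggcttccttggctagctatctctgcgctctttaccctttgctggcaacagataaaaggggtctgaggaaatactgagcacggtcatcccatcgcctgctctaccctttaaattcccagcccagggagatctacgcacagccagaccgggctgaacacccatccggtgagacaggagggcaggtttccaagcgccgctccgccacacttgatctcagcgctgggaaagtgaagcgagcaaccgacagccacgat

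Gpam (chr1:264175862-264176161, - strand): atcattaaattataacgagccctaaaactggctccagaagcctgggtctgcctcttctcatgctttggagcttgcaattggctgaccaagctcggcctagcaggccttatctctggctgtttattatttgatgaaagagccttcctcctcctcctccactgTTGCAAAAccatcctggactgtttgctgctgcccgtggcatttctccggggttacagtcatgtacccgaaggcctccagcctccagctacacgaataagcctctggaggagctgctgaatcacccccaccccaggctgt

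Windows were at hand for 22 of the 34 members, 28 windows in all since some genes have several starts. TTGCNNAA was found in 5 of the 28 windows, those of Plin1, Lep, Cidec, 1 of the Pparg starts and Gpam, against 10.6% of all 33469 windows. The match lies 209 bases before the start in Cidec, 174 in Pparg and 89 in Gpam. The direct repeat that PPARG reads with its partner RXR, 2 half-sites AGGTCA spaced by 1 base, was in 0 of the 28 windows, also with the T of each half-site left free, against 0.0538% and 0.415% of all windows. A sterol response element, TCACNCCAC, was in 0 of the 28 and in 1.12% of all. With shares this low, 0 of 28 windows tells nothing about the members. Several Plin4 windows overlap almost fully, so the 28 are not all separate. Both strands were searched each time, and only these letters in these windows are described. Members with opposite folds, Cidec and Gpam, both hold a match. The start regions printed above are a choice and not all that qualified. Slc7a10, Cfd, Thrsp, Plin5 and Pnpla2 also passed 2-fold in denervated over normal soleus, as did the bounds of Pck1, Ffar4 and Cebpa. The windows of all these genes hold no match. Of the Pparg starts only the one with a match is printed.

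The first comparison, denervated over normal soleus, asks what changes in a slow muscle without its nerve. Fat cell markers were higher on the denervated array as a broad group, with the hormone gene Adipoq at 12.6-fold, the amino acid transporter gene Slc7a10 at 8.72-fold and the droplet gene Cidec at 7.09-fold. Of the 19 markers 12 were measured on both arrays. Of these, 8 were at least 2-fold higher and 1, the glycerol channel gene Aqp7, was lower (median 1.97). Among all 10052 genes measured on both arrays 6.65% were higher and 11.7% lower (median 0.00). The shared lipid genes did not show that lean. Of 14 measured on both arrays 1, the desaturase gene Scd, was higher and 4 were lower (median -0.48).

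Another 5 markers were well above background on the denervated array alone. They could only have come out as higher, so they are given as bounds and add no support. With these bounds the count is 13 of 17 markers, set against 8.73% of the 11318 genes above background on at least 1 array; 13.4% of those genes were lower, 988 genes being higher and 1518 lower. With the authors' values, which carry no centring of the arrays, 1568 were higher and 1107 lower. The leptin gene Lep was not well above background on any array. In whole muscle RNA, more fat cells, more of these messages per cell and a smaller share of RNA from fibres cannot be told apart. Muscle fibre markers had a median log2 fold of -1.14 in this comparison, and their part in these values was not tested.

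**Figure D1:**
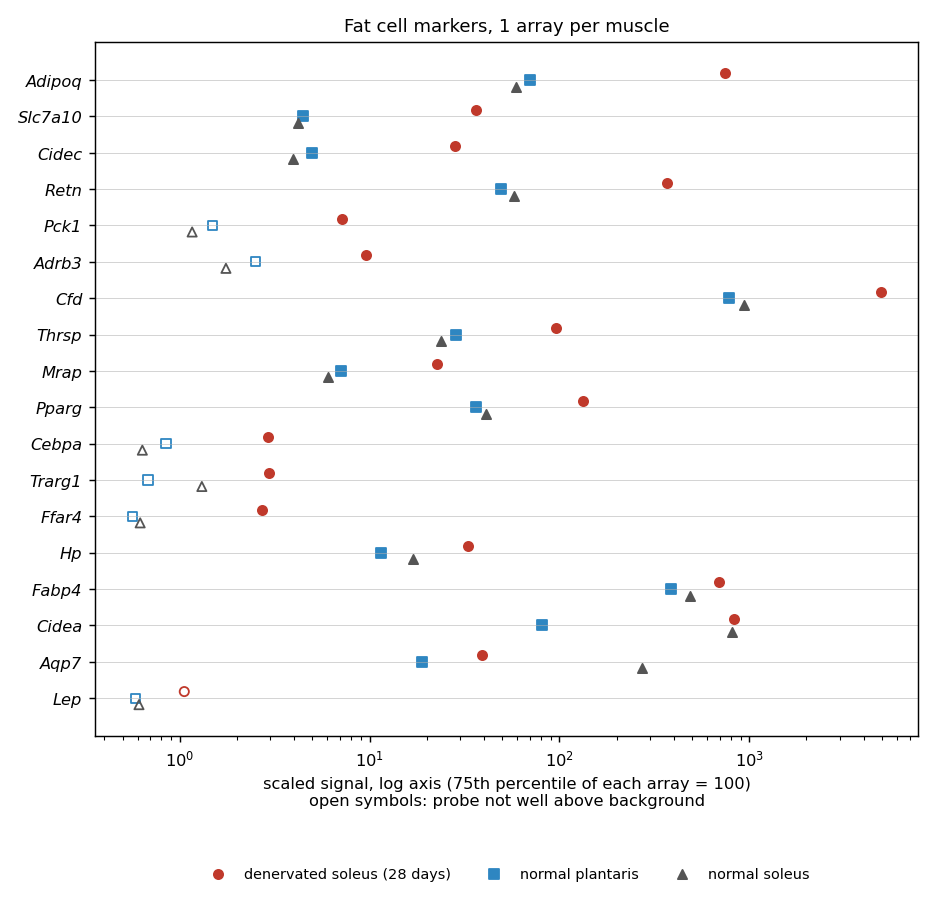
Scaled signal (log axis, 75th percentile of each array at 100) of the 18 fat cell markers with a probe on the denervated soleus (circles), normal plantaris (squares) and normal soleus (triangles) array. Open symbols were not well above background. For most genes the circle lies apart to the right. Of the markers measured on both normal arrays, only Cidea and Aqp7 are at least 2-fold lower in plantaris than in the normal soleus.

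Among the secreted products, Adipoq, the gene of adiponectin, had a scaled signal of 742 on the denervated soleus array, 69.9 on the plantaris array and 59.1 on the normal soleus array. The denervated array stood alone and the normal muscles close together. Its fold over the normal soleus was 3.65 ± 0.20, and repeat spots on 1 array differed by a log2 SD of at most 0.14. Retn, which encodes resistin, a hormone of fat cells in rodents, stood at 368 in the denervated soleus, 49.3 in plantaris and 57.4 in the normal soleus, a denervated over normal fold of 2.68 ± 0.20. Cfd, which encodes adipsin, the complement factor D of fat cells, stood at 4943, 783 and 936 in the same order, a fold of 2.40 ± 0.20. Again the plantaris and the normal soleus were near each other. Hp, the gene of haptoglobin, an acute-phase protein made by liver and also by fat, stood at 33.1 in the denervated soleus, 11.5 in plantaris and 16.9 in the normal soleus. Its fold of 0.97 ± 0.21 was just short of 2-fold, and was 1.22 with the authors' values and 0.68 with a normexp background. Lep read 1.06, 0.584 and 0.610 on the denervated, plantaris and normal soleus arrays, not well above background on any.

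The droplet coats went separate ways. Cidec, which fuses droplets into the large ones of white fat, stood at 28.1 in the denervated soleus, 4.99 in plantaris and 3.97 in the normal soleus. The denervated over normal fold was 2.83 ± 0.31. Its relative Cidea, known in mice from brown fat, stood at 830 in the denervated soleus, 80.7 in plantaris and 808 in the normal soleus. Here the soleus with and without its nerve lay together (0.04 ± 0.20, on a second probe 0.13) and the plantaris apart. Plin5, the perilipin that ties droplets to mitochondria in oxidative fibres, stood at 3.90 in the denervated soleus, 9.39 in plantaris and 17.6 in the normal soleus, a fold of -2.17 ± 0.26 from 1 spot per array. Plin2, the droplet coat found in most cells, stood at 290, 94.9 and 223 on the denervated, plantaris and normal soleus arrays (0.38 ± 0.20). So of 4 coat genes with a probe, 1 was higher, 1 lower and 2 within 2-fold. Among all genes measured on both arrays 6.65% were higher and 11.7% lower, and 4 genes are too few to set against those shares.

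Of the surface, carrier and accessory proteins, Slc7a10 had the largest fold among those measured on both arrays. It encodes a neutral amino acid transporter of fat cells and brain and stood at 36.4 in the denervated soleus, 4.48 in plantaris and 4.18 in the normal soleus (denervated over normal 3.12 ± 0.29). Mrap, whose product carries the corticotropin receptor to the cell surface, stood at 22.7, 7.10 and 6.03 in the same order (1.91 ± 0.25). Both had plantaris and normal soleus levels near each other and a denervated level well above. Fabp4, the fatty acid carrier of fat cells, macrophages and capillaries, stood at 693 in the denervated soleus, 387 in plantaris and 487 in the normal soleus, a fold of 0.51 ± 0.20. Measured on the denervated array only, Adrb3, the beta-3 adrenergic receptor that starts lipolysis in rodent fat, was at 9.59 and at least 2.45 ± 0.55 higher in log2. Trarg1, a regulator of the glucose transporter GLUT4, was at 2.94 and at least 1.17 ± 0.64 higher. Ffar4, a receptor for long-chain fatty acids, was at 2.70 and at least 1.12 higher. Its scanner error of 1.48 includes its own dim normal soleus signal, which the bound replaces with the faintest probe above background. No error of that bound itself is given.

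Aqp7 went against the other markers. The channel lets glycerol leave fat cells and enter or leave fibres and capillaries. It stood at 39.1 in the denervated soleus, 19.0 in plantaris and 272 in the normal soleus, and its denervated over normal fold was -2.80 ± 0.20. The normal soleus was thus the high array for Aqp7. Of 7 endothelial markers, Cdh5, the cadherin of endothelial junctions, stood at 42.8, 64.3 and 211 on the denervated, plantaris and normal soleus arrays. Kdr, a receptor for vascular growth factor, stood at 226, 581 and 593, and Pecam1, a surface protein of endothelium, at 366, 339 and 420. Of the other 4, the junction protein gene Esam (-0.39 ± 0.21) and the receptor gene Tie1 (-0.60 ± 0.21) were also below 0 in denervated over normal soleus. The receptor gene Tek (0.22 ± 0.29) and Emcn (0.21 ± 0.21), which encodes endomucin, were above 0. The 7 together summed to 760, 1096 and 1362, a sum carried by the bright Kdr and Pecam1 probes, and all 7 were above background on every array. The part of endothelium in the Aqp7 values was not tested.

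Of the transcription factors of the fat cell programme 1 was measured on both arrays. Pparg, which encodes the nuclear receptor PPARG, stood at 133 in the denervated soleus, 36.3 in plantaris and 41.1 in the normal soleus, a denervated over normal fold of 1.70 ± 0.21. Cebpa, the gene of C/EBP alpha, was faint at 2.92 on the denervated array and not well above background elsewhere, a bound of at least 1.23. Its scanner error of 1.48 includes its own dim normal soleus signal, which the bound replaces with the faintest probe above background. Thrsp, a nuclear protein that follows fatty acid synthesis in liver and fat, stood at 95.8 in the denervated soleus, 28.4 in plantaris and 23.7 in the normal soleus (2.02 ± 0.21). Pck1 encodes the enzyme that makes glycerol phosphate from pyruvate carbon in fat. It was at 7.18 on the denervated array and at least 2.53 higher than in the normal soleus, with a scanner error of 0.81 of the same kind as for Cebpa. With a normexp background the bounds shrank below 2-fold for Adrb3 (0.56), Pck1 (0.44), Ffar4 (0.16) and Cebpa (0.05), and for Trarg1 no bound remained. The 8 higher markers measured on both arrays were at least 2-fold higher there too, with Mrap at 1.13, Cidec at 1.49 and Slc7a10 at 1.83 in log2.

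**Figure D2:**
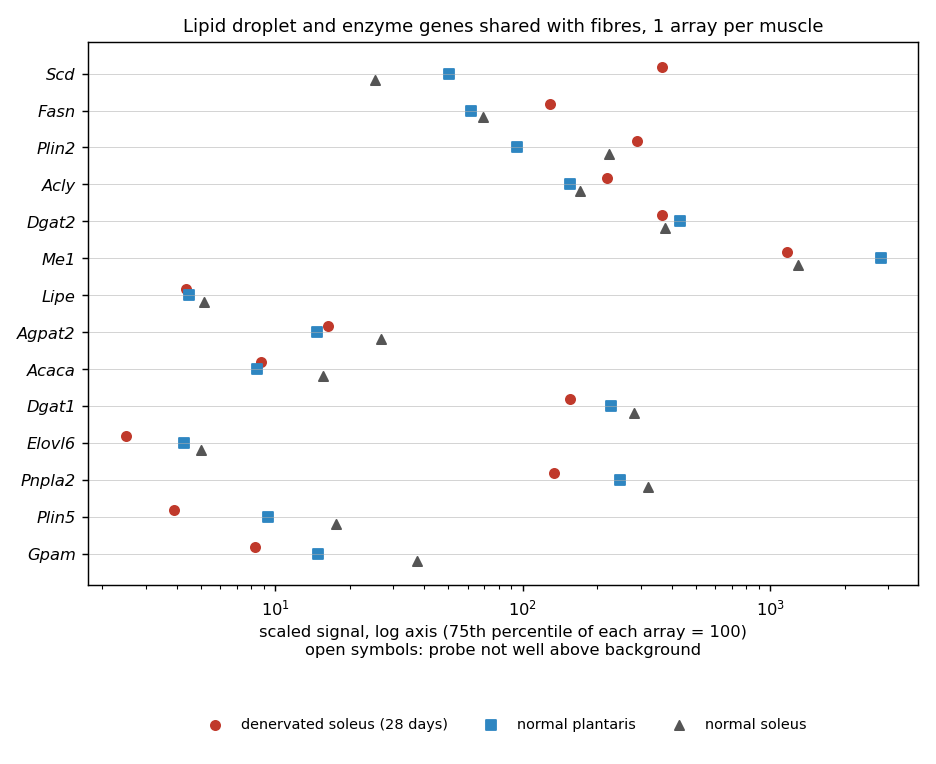
Scaled signal (log axis, 75th percentile of each array at 100) of the 14 shared lipid genes with a probe on the denervated soleus (circles), normal plantaris (squares) and normal soleus (triangles) array. Scd is the gene with a circle far to the right. Among the genes whose circle lies left of both other arrays, Plin5 and Gpam lie farthest from the normal soleus.

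Fatty acid synthesis runs from citrate through acetyl-CoA and malonyl-CoA to palmitate, which is then lengthened and desaturated. Scd, the desaturase that makes oleate, had the largest fold of the 26 members measured on both arrays. It stood at 367 in the denervated soleus, 50.3 in plantaris and 25.3 in the normal soleus, a denervated over normal fold of 3.86 ± 0.21 or 14.5-fold. Its near relative Scd2 stood at 161, 71.9 and 79.8 (1.01 ± 0.20), and whether the probes read each other's message was not tested. Fasn, the fatty acid synthase, stood at 129 in the denervated soleus, 61.9 in plantaris and 69.4 in the normal soleus, a fold of 0.89 ± 0.20 that was 1.13 with the authors' values. Acly, which makes acetyl-CoA from citrate, was at 0.36 ± 0.20, and Me1, the malic enzyme that supplies NADPH, at -0.15 ± 0.20. Me1 stood at 0.16 under quantile normalization. Acaca, which makes malonyl-CoA, stood at -0.82 ± 0.23. Elovl6, which lengthens palmitate, lay at the threshold, with a log2 fold of -1.0 ± 0.36. Its fold was -0.96 under quantile normalization and -0.63 with a normexp background, so its place among the 4 lower genes is not firm. A second Elovl6 probe was not above background on any array and measures nothing here.

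In triglyceride assembly 1 of 4 genes was at least 2-fold lower and 0 were higher (median -0.79). Among all genes measured on both arrays 11.7% were lower and 6.65% higher, and 4 genes are too few to set against those shares. Gpam, the mitochondrial acyltransferase of the first step, stood at 8.31 in the denervated soleus, 14.9 in plantaris and 37.5 in the normal soleus, a denervated over normal fold of -2.18 ± 0.22. Agpat2, the acyltransferase of the second step, was at -0.72 ± 0.21. Of the enzymes of the last step, Dgat1 stood at -0.86 ± 0.20 and Dgat2 at -0.04 ± 0.20, which was 0.10 under quantile normalization and 0.21 with the authors' values. In lipolysis Pnpla2, the first triglyceride lipase, stood at 133 in the denervated soleus, 247 in plantaris and 322 in the normal soleus (-1.27 ± 0.20). Lipe, the hormone-sensitive lipase that follows it, was faint at 4.37, 4.51 and 5.16 (-0.24 ± 0.29; -0.78 on a second probe). The lipases and acyltransferases that fat cells also use were thus at or below their normal soleus level, on the array where the fat cell hormones were above it.

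**Figure D3:**
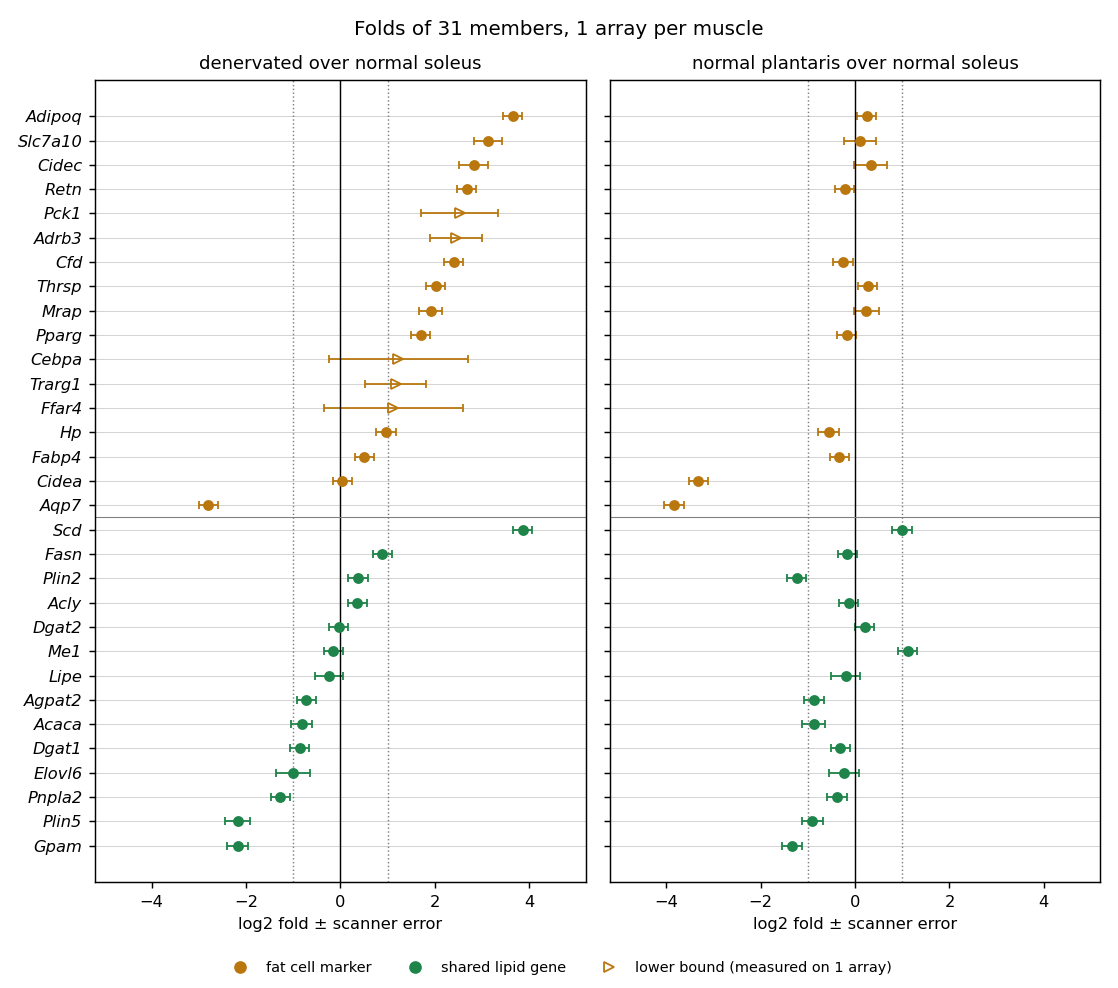
Log2 folds with the scanner error of the 31 members above background on at least 1 array, denervated over normal soleus on the left and normal plantaris over normal soleus on the right. Dotted lines mark 2-fold and open triangles are lower bounds. For Ffar4, Cebpa and Pck1 the error bar includes a dim signal that the bound does not use. On the left the fat cell markers reach from -2.80 to 3.65, most of them right of 1, and the shared lipid genes from -2.18 to 3.86, most of them left of 0.

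The second comparison sets the normal plantaris, a fast muscle, over the normal soleus, a slow muscle. It shares the normal soleus array with the first, so the 2 sets of folds are not independent. Apart from Cidea and Aqp7, the fat cell markers measured on both arrays lay within 2-fold between the normal muscles. Of 12 markers measured on both arrays 0 were at least 2-fold higher and 2 lower (median -0.20), against 4.37% higher and 4.31% lower among 10054 genes (median 0.02). Over the 11015 genes above background on at least 1 of these arrays the shares were 5.71% and 6.11%, and no marker was measured on 1 of them alone. The other 10 lay between -0.56 and 0.33. Adipoq was at 0.24 ± 0.20, Retn at -0.22 ± 0.21, Cfd at -0.26 ± 0.20, Cidec at 0.33 ± 0.35 and Pparg at -0.18 ± 0.21. Hp was farther from 0 in units of its error, at -0.56 ± 0.22.

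The exceptions were both lower in plantaris. Cidea stood there at a log2 fold of -3.32 ± 0.20, with -3.16 on its second probe. For Aqp7 the fold was -3.84 ± 0.21, a 14.3-fold difference. Where the plantaris levels were 80.7 and 19.0, the normal soleus levels were 808 and 272. Of the 26 members measured on both normal arrays these had the largest differences.

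Of 14 shared lipid genes 1 was higher in plantaris and 2 were lower (median -0.27). Me1 stood at 2797 in plantaris and 1293 in the normal soleus, a fold of 1.11 ± 0.20 that was 1.06 on a second probe and 0.97 under quantile normalization. The lower genes were Gpam (-1.33 ± 0.21, or -0.92 with a normexp background) and Plin2 (-1.24 ± 0.20). Plin5 at -0.90 ± 0.22, Acaca at -0.88 ± 0.24 and Agpat2 at -0.87 ± 0.21 were also below 0, within 2-fold. Scd was on the other side at 0.99 ± 0.21. The remaining 7 genes lay between -0.38 for Pnpla2 and 0.20 for Dgat2.

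Beyond the 34, 3 further gene lists were read, beside shares over all genes measured on both arrays of 6.65% higher and 11.7% lower for denervated soleus, and 4.37% and 4.31% for plantaris. The first holds 20 other genes that fat cells make, many of them shared with fibres or vessels. Of 15 measured on both arrays 3 were higher and 4 lower in the denervated soleus (median -0.25). Sncg, which encodes gamma-synuclein and is made by fat cells and neurons, stood at 555 in the denervated soleus, 28.4 in plantaris and 32.9 in the normal soleus (4.08 ± 0.21). Rbp4, the retinol carrier secreted by liver and fat, stood at 876, 120 and 94.0 in the same order (3.22 ± 0.20). These followed the fat cell hormones, whereas G0s2, an inhibitor of the lipase encoded by Pnpla2, stood at 1238, 1783 and 7572 (-2.61 ± 0.20). Between the normal muscles the largest folds of that list were Gpd1 (3.41 ± 0.20), a glycerol phosphate dehydrogenase, Lpl (-2.44 ± 0.20), the lipoprotein lipase, and Car3 (-2.09 ± 0.20), a carbonic anhydrase of slow fibres and fat. Ucp1, the uncoupling protein that defines brown fat, was not well above background on any array.

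The second list holds 28 other genes of lipid synthesis and droplet formation. Of 23 measured on both arrays 2 were higher and 3 lower in the denervated soleus (median 0.13). Fads1, a desaturase of polyunsaturated fatty acids, stood at 1.94 ± 0.21, Mlxipl, which encodes the carbohydrate-sensing factor ChREBP, at -2.05 ± 0.22 and Fitm2, a droplet formation protein, at -1.63 ± 0.20. In plantaris 1 of 23 passed 2-fold, Mogat1, a monoacylglycerol acyltransferase (-2.32 ± 0.28). The next were Lpin1, a phosphatidate phosphatase, at 0.85 ± 0.22 and Agpat1, another acyltransferase of the second step, at 0.77 ± 0.20. The third list holds 13 genes of fat cell precursors. Of 11 measured on both arrays 3 were higher and 0 lower in the denervated soleus (median 0.36), namely Ccn5, a secreted matrix protein, at 2.14 ± 0.21, Klf5, a zinc finger factor, at 2.09 ± 0.23 and Ebf2, a transcription factor of precursor cells, at 1.21 ± 0.28. None of the 11 passed 2-fold in plantaris, where Dpp4, a surface peptidase, stood at 0.89 ± 0.21, Ebf1, a relative of Ebf2, at -0.70 ± 0.37 and Ccn5 at -0.68 ± 0.23.

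Markers of other cell types also differed between the arrays, read here against the 6.65% of genes higher and 11.7% lower among those measured on both soleus arrays. The fibroblast markers lay above 0 in the denervated soleus in 7 of 7, with 1 past 2-fold (median 0.81), and their summed scaled signal was 28828 on the denervated, 30998 on the plantaris and 15911 on the normal soleus array. That sum is carried by the bright collagen probes of Col1a1 and Col1a2, and in plantaris over soleus the list median was -0.28 with 4 of 7 below 0. Muscle fibre markers were at least 2-fold lower in 4 of 6 (median -1.14), with summed signals of 126716, 269922 and 214616, and skeletal actin, Acta1, was at -2.44 ± 0.20. Macrophage markers passed 2-fold in 0 of 7 (median 0.47), and blood markers in 0 of 3 (median 0.46). Endothelial markers were lower in 2 of 7 (median -0.39). Of 4 smooth muscle markers (median -0.69) the 1 past 2-fold was the desmin gene Des (-1.21 ± 0.20), which is also counted among the fibre markers, and the other 3 lay between -0.82 and -0.53. For the 18 fat cell markers the summed signal, in which Cfd was the largest term on each array, was 7990 on the denervated array, 1489 on the plantaris and 2722 on the normal soleus array. Between the normal muscles that difference lies largely in 2 genes. They are Cidea, at 80.7 in plantaris and 808 in the normal soleus, and Aqp7, at 19.0 and 272. The part of these other cells in the values of the 34 genes was not tested.

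**Figure D4:**
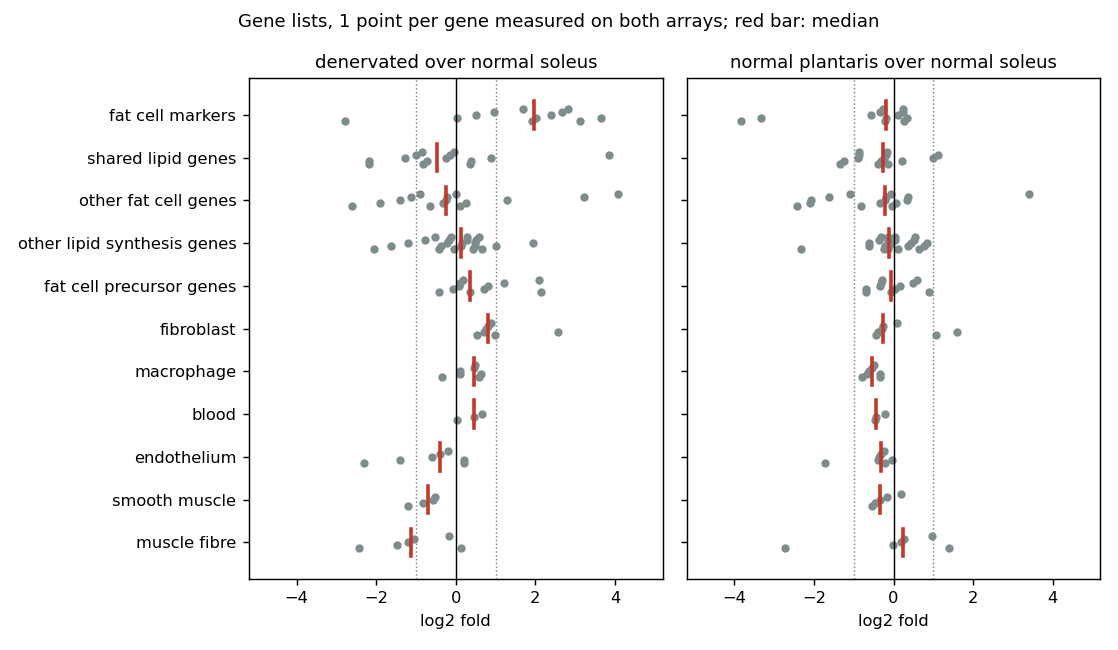
Log2 folds of the genes of 11 lists, denervated over normal soleus on the left and normal plantaris over normal soleus on the right, 1 point per gene measured on both arrays with the list median as a red bar. The fat cell marker median is 1.97 on the left and -0.20 on the right, and the muscle fibre median is -1.14 on the left and 0.23 on the right.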

How the data were processed

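Messenger RNA of 3 rat muscles was measured on 3 one-colour (Cy3) arrays. Per the submitters' processing notes the scans were quantified with Agilent Feature Extraction 10.10.1.1. Per the file headers the processed signal is an intensity, background-subtracted and spatially detrended within an array and not normalized between arrays, and other columns are flags. The authors' deposited value table is also an intensity, equal to the processed signal times 1.41 for denervated soleus, 1.80 for plantaris and 1.60 for normal soleus. The origin of these factors is unknown here. The table was used as an alternative.

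The log2 processed signal had each array's 75th percentile over its 58717 non-control spots subtracted. Outlier spots, 467 to 569 per array, were dropped, and saturation affected 0 spots. Repeat spots were averaged. A probe counted as above background when 50 percent or more of its spots carried that flag. Of 30367 probes, 18005 matched a symbol through RefSeq accessions (GRCr8 tables). The array design was annotated on an older build, so probes carry no coordinates here. The brightest probe stood for a gene, and 4 members had several. Where a gene was above background on 1 array only, its fold is a bound against the larger of its own signal and the faintest probe above background on the other array. The error beside a bound always includes the gene's own dim signal, also where the faintest probe replaced it (Ffar4, Cebpa and Pck1). There was 1 array per group, hence no test. The fold procedure was tested on simulated data, with folds planted only in genes clear of background on every array. Bounds and faint probes were not tested. Alternatives were a normexp background (limma 3.58.1, offset 50, on median spot signal since the files used hold no mean signal), quantile normalization, the authors' values, other filters, a mean over probes, outlier spots kept, and centring on the median. The number of arrays limits the precision.

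All 34 members are named, with up to 3 genes of each further list by largest fold per comparison. Of the label check genes, values are given for Myh4, Chrng and Acta1, and not for Myh7, Ckm, Chrna1 and Actn3. The members and lists were chosen with earlier results of these data known. Scd2, Ucp1, the endothelial markers, Des, Col1a1 and Col1a2 were named in addition after their values were seen.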

Additional observations from a re-analysis of the deposited data

How the results depend on the processing

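For fat cell markers, denervated over normal soleus, the count of 13 higher genes was 8 with a normexp background and 8 among genes above background on both arrays, and the median of 1.91 (bounds included) was 0.91 with normexp and 2.16 with the authors' values, where Hp raised the count to 14. For the shared lipid genes in that comparison 2 were higher with the authors' values (Fasn at 1.13 joined Scd), and the median of -0.48 was -0.24 there. In plantaris over soleus, 2 shared lipid genes were higher when centred on the median (Scd at 1.06 joined Me1) and 1 was lower with normexp. The authors' values, which are not centred, moved the median of all genes in the denervated comparison to 0.27, against 0.03 here, and the split of all genes to 1568 higher and 1107 lower, against 988 and 1518. With normexp the split was 367 and 1001, and in plantaris 309 and 282, against 629 and 673. Among genes on both arrays 668 were higher and 1177 lower in denervated soleus, and 439 and 433 in plantaris. No member past 2-fold changed sign in those of the 8 alternatives that gave it a value, Adrb3, Cebpa, Ffar4, Pck1 and Trarg1 having none among genes above background on both arrays, and Trarg1 none with normexp. Small folds did change sign, namely Cidea, Dgat2, Lipe and Me1 in denervated soleus and Elovl6, Lipe and Slc7a10 in plantaris. Faint probes limit Cebpa, Ffar4, Trarg1, Pck1 and Adrb3. The authors' values are the processed signal times a fixed factor per array, so they move the folds of a comparison by the same amount. Adipoq went from 3.65 to 3.89 and Scd from 3.86 to 4.10 in denervated soleus. The cause of the other shifts was not tested. No paired analysis was possible because each group is 1 array.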
